A study of Caenorhabditis elegans with 10 samples.

Results

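The genes described here are 36 named components of the *Caenorhabditis elegans* spliceosome outside the U2 snRNP, Sm and SR groups: RNA helicases, proteins of the U4/U6.U5 tri-snRNP, the LSm ring, the PRP19-related factors and a few early factors. They were taken by name from both tables of normalized transcript counts, and the transcripts of a gene were summed. Of the 36 names, 35 were found in both tables, which hold 46739 genes for L4 larvae and 15355 for L2 larvae; *lsm-2* is written *gut-2* there. *ddx-46* is in neither table under that name. All 35 genes passed the filter on low values, a mean of at least 10 normalized counts, at both stages.

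RNA was sequenced from whole larvae carrying alleles of *sftb-1*, the worm ortholog of the human splicing factor SF3B1, with 2 libraries in each of 5 groups. At the L4 stage (41 h of growth at 20 °C, poly-A capture), homozygous *sftb-1*[K718E] worms of strains carrying *cer3* (replicate 1) or *cer7* (replicate 2) were set beside WT siblings kept from the outcross of each strain. At the L2 stage (23 h at 20 °C, rRNA-depleted total RNA), *cer39*, which joins Q552P, R643C and K718E in the same protein, and homozygotes of the deletion allele *cer6* were set beside WT N2 larvae. The *cer6* homozygotes had been picked by an automatic sorter as the non-red offspring of balanced mothers. They could thus still hold maternal product. Some red larvae, WT or heterozygous for *cer6*, and some non-red recombinants remained among them. WT L2 larvae had been passed through the same sorting window, but *cer39* larvae, all of a single strain, were not sorted, so that sorting and genotype cannot be told apart in that comparison. The L2 replicates were collected as separate populations. Each L4 library comes from a different strain.

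Pre-mRNA splicing is carried out by small nuclear ribonucleoproteins that assemble anew on each intron. U1 and U2 first mark the splice sites and the branch point, where SF3B1 acts, and the preassembled tri-snRNP then joins. ATP-driven helicases unwind the U4/U6 duplex, rearrange the active site, release the spliced mRNA and take the machine apart. The PRP19-related proteins hold the activated complex together. In *C. elegans*, several of the late helicases were found as *mog* genes, whose loss masculinizes the germ line.

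The reads recovered from the deposited counts summed to between 56996610 and 66563408 per L4 library. Per L2 library they summed to between 45313448 and 76420128. These are counts assigned to the listed transcripts, not the reads sequenced. The normalized count of *sftb-1* itself was 14652 and 13787 in WT and 13710 and 15045 in K718E at L4. At L2 it was 6152 and 7222 in WT, 7333 and 6706 in *cer39*, and 3229 and 3580 in *cer6*. Only the *cer6* libraries stood apart, at -0.97 on the log2 scale against WT (limma, SE 0.13, adjusted p = 0.00592). Of the marker lists checked at L2, the 20 germ line markers summed to 24644 and 34937 in WT, 14320 to 17455 in *cer39* and 20115 to 24093 in *cer6*, and none of them was at 0 in any library. Markers of muscle, intestine, neurons, pharynx and hypodermis were detected too, and some differed between the WT replicates: the 6 pharynx markers summed to 26080 and 60964 in WT, 27901 to 39138 in *cer39* and 17360 to 22077 in *cer6*. Their part in the results below was not tested, and in whole larvae fewer cells of a type cannot be told apart from less RNA per cell.

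Most of these spliceosome genes were raised in *cer6* larvae. Of the 35 genes, 24 rose and none fell (limma on log2(normalized count + 1), Benjamini-Hochberg adjusted p under 0.05), where 13.8% of the 15011 genes tested rose and 13.8% fell. The median log2 fold change was 0.86 over the 35 genes and -0.01 over all genes tested. In *cer39* larvae, 9 of the 35 rose and none fell, where 4.12% of all genes tested rose and 3.04% fell, and the median was 0.41 (0.01 over all genes). All 9 were among the 24 that rose in *cer6*, and both comparisons share the WT libraries. The fold changes are on the log2(value + 1) scale. The SE and p-values rest on the spread between the 2 libraries of a group, pooled over all L2 groups and moderated by limma across genes. Without *cer39* replicate 1 or without *cer39* replicate 2, 0 of the 9 calls in *cer39* remained, and 0% of all genes tested rose in either fit. The fold changes of the 9 genes hardly moved there: their median was 0.89 with both libraries, 0.89 without replicate 1 and 0.88 without replicate 2. In *cer6*, 20 rose without *cer6* replicate 1 (6.33% of all genes tested) and 18 without *cer6* replicate 2 (7.51%).

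Calls are those of limma unless another tool is named. On simulated data, false calls made up more than the nominal share, most of all with DESeq2 at L2. Calls made there by DESeq2 alone, here and below, carry that limit. In *cer39*, DESeq2 also called *prp-3*, *snrp-27*, *prp-19*, *mog-5*, *prp-17*, *lsm-2*, *lsm-6* and *lsm-8* higher (8.69% of all genes tested rose by DESeq2), and edgeR also called *lsm-6* and *lsm-8* (4.74%). In *cer6*, both DESeq2 (15.9%) and edgeR (14.7%) also called *snrp-27* higher.

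**Figure D1:**
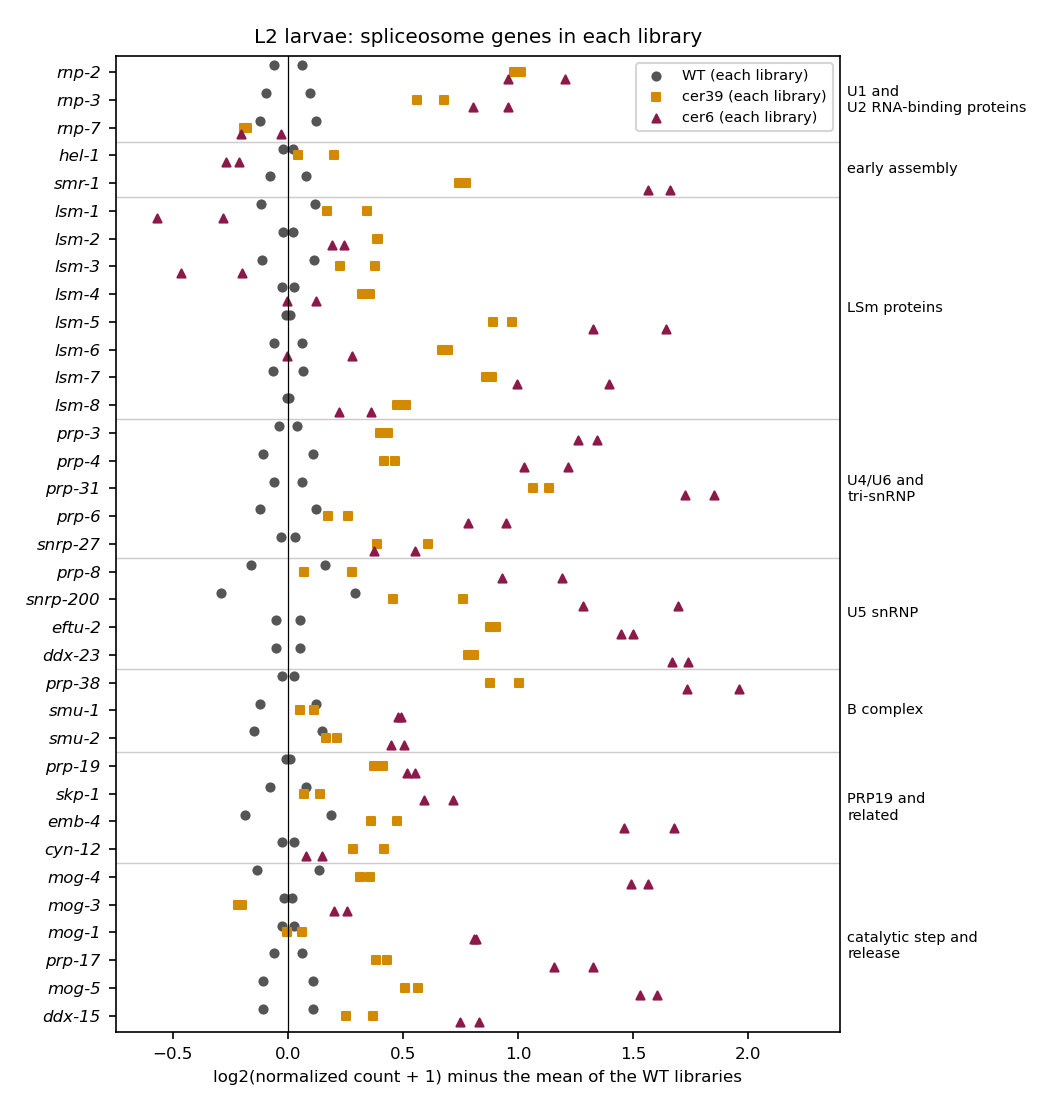
Normalized counts of the 35 genes in each L2 library, as log2(value + 1) minus the mean of the 2 WT libraries (x axis), with genes in rows by role. Each symbol is a library. Both *cer6* libraries lie to the right of both WT libraries for 29 of the 35 genes and to the left for 3, and both *cer39* libraries lie to the right for 29 and to the left for 2.

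The libraries of *cer6* lay above those of WT without overlap for 29 of the 35 genes (31.1% of all genes tested did so) and below for 3 (32.7%). For *cer39*, the same counts were 29 (32.6%) and 2 (29.4%). The 3 genes lower in both *cer6* libraries were *hel-1*, *lsm-1* and *lsm-3*, and the 2 lower in both *cer39* libraries were *rnp-7* and *mog-3*. None of these 5 differences passed the test.

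The U5 snRNP carries the catalytic core of the tri-snRNP, and all 4 of its genes rose in *cer6*. *eftu-2* (chromosome III, 6009560 to 6012840 of WBcel235) encodes the GTPase related to yeast Snu114, which controls the unwinding step. Its normalized count was 9236 and 9956 in WT, 17969 and 17647 in *cer39* and 27162 and 26158 in *cer6*. The 3 groups did not overlap, and the log2 fold change was 0.89 (SE 0.11, adjusted p = 0.0195) in *cer39* and 1.47 (SE 0.11, adjusted p = 0.00192) in *cer6*. *ddx-23* (chromosome III, 5848838 to 5853269) encodes the DEAD-box helicase related to yeast Prp28, which frees the 5′ splice site from U1. It was counted at 2890 and 3113 in WT, 5157 and 5249 in *cer39* and 10004 and 9530 in *cer6*. This too gave 3 separate levels, with changes of 0.79 (SE 0.10, adjusted p = 0.0198) and 1.70 (SE 0.10, adjusted p = 0.00137).

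*prp-8* (chromosome III, 8164373 to 8172710), which encodes the largest spliceosomal protein and cradles the active site, had counts of 26118 and 32723 in WT, 35427 and 30653 in *cer39* and 55714 and 66780 in *cer6*. A single *cer39* library lay within the WT range and the other above it, and both *cer6* libraries stood well above. The change was 1.06 (SE 0.18, adjusted p = 0.0122) in *cer6* and 0.17 (SE 0.18, adjusted p = 0.563) in *cer39*. *snrp-200* (chromosome II, 12726963 to 12736910) encodes the helicase related to yeast Brr2, which unwinds U4 from U6. Its counts were 4166 and 6251 in WT, 8659 and 7000 in *cer39* and 12411 and 16548 in *cer6*. The WT replicates of *snrp-200* differed more, relative to their mean, than those of the other U5 genes. The change of 0.61 in *cer39* did not pass (SE 0.25, adjusted p = 0.18), while that in *cer6*, 1.49, did (SE 0.25, adjusted p = 0.0117). Without *cer6* replicate 2, neither *prp-8* nor *snrp-200* passed in *cer6*.

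Among the U4/U6 and tri-snRNP proteins, 4 of 5 rose in *cer6* and 1 of 5 in *cer39* by limma, where DESeq2 also called *prp-3* and *snrp-27*. *prp-31* (chromosome I, 5127828 to 5129611) encodes the U4 protein that helps to dock U4/U6 to U5. It was counted at 2416 and 2634 in WT, 5282 and 5544 in *cer39* and 9120 and 8344 in *cer6*. Its log2 fold change of 1.101 (SE 0.11, adjusted p = 0.0162) was the highest of the 35 genes in *cer39*, and that in *cer6* was 1.79 (SE 0.11, adjusted p = 0.00137). *prp-3*, which encodes a U4/U6 duplex-binding protein, had counts of 2163 and 2286 in WT, 2936 and 3006 in *cer39* and 5647 and 5327 in *cer6*. The levels of *prp-3* were separate in all 3 groups, but only the change in *cer6*, 1.30 (SE 0.10, adjusted p = 0.00199), passed. *prp-4*, which encodes the WD-repeat partner of PRP-3, was at 990 and 1148 in WT, 1474 and 1426 in *cer39* and 2482 and 2174 in *cer6*, with 1.12 (SE 0.13, adjusted p = 0.00404) in *cer6*. *prp-6*, which encodes the protein bridging U4/U6 and U5, was at 4442 and 5264 in WT, 5794 and 5453 in *cer39* and 8314 and 9325 in *cer6*, with 0.86 (SE 0.13, adjusted p = 0.00836) in *cer6*. In *cer39*, *prp-3*, *prp-4* and *prp-6* gave 0.42, 0.44 and 0.22 with adjusted p-values of 0.0629 to 0.319. *snrp-27*, which encodes a small tri-snRNP protein known in worms for its effect on 5′ splice site choice, passed in neither mutant by limma, while DESeq2 called it higher in both and edgeR in *cer6*. Its mean count was 629 ± 19 in WT (SD, n = 2), 891 ± 95 in *cer39* and 869 ± 76 in *cer6*, and its changes were 0.50 (SE 0.13, adjusted p = 0.0839) and 0.46 (SE 0.13, adjusted p = 0.0544).

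The B complex forms when the tri-snRNP joins. *prp-38* (chromosome V, 10804721 to 10806034), whose yeast counterpart is needed to activate the complex, had the largest log2 fold change of the 35 genes in *cer6*. Its count was 904 and 936 in WT, 1693 and 1845 in *cer39* and 3580 and 3062 in *cer6*. The groups formed 3 steps, 0.94 (SE 0.12, adjusted p = 0.0215) in *cer39* and 1.85 (SE 0.12, adjusted p = 0.0016) in *cer6*. *smu-1* and *smu-2*, first found in worms as suppressors of a splicing mutant, encode partner proteins of the B complex. *smu-1* was counted at 1181 and 1399 in WT, 1331 and 1392 in *cer39* and 1793 and 1810 in *cer6* and *smu-2* at 1001 and 1228 in WT, 1285 and 1244 in *cer39* and 1572 and 1514 in *cer6*. Both rose in *cer6* by less than *prp-38*, 0.49 (SE 0.12, adjusted p = 0.0351) and 0.48 (SE 0.13, adjusted p = 0.0476), and neither passed in *cer39* (0.08 and 0.19). These 2 calls were lost without WT replicate 1, without either *cer39* library or without either *cer6* library.

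Of the PRP19-related genes, 3 of 4 rose in *cer6* and none of 4 passed in *cer39* by limma, where DESeq2 called *prp-19*. *emb-4* (chromosome V, 18860285 to 18894974), which encodes the helicase related to human Aquarius, an intron-binding factor, was counted at 5276 and 6833 in WT, 8350 and 7705 in *cer39* and 16522 and 19195 in *cer6*. Its log2 fold changes were 1.57 (SE 0.16, adjusted p = 0.00325) in *cer6* and 0.42 (SE 0.16, adjusted p = 0.165) in *cer39*. *skp-1* encodes the worm form of SKIP, a scaffold at the active site, and was at 2606 and 2907 in WT, 3031 and 2885 in *cer39* and 4522 and 4147 in *cer6*. *prp-19*, which encodes the ubiquitin ligase that names the complex, was at 4689 and 4738 in WT, 6271 and 6117 in *cer39* and 6904 and 6741 in *cer6*. Both were above WT in each *cer6* library, with smaller changes of 0.65 (SE 0.11, adjusted p = 0.0118) and 0.53 (SE 0.09, adjusted p = 0.0127). *skp-1* did not pass without *cer6* replicate 1, and *prp-19* did not pass without either *cer6* library. *cyn-12*, which encodes a peptidyl-prolyl isomerase, was at 689 and 666 in WT, 904 and 824 in *cer39* and 751 and 716 in *cer6*, with 0.11 (SE 0.11, adjusted p = 0.508) in *cer6*.

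The genes of the catalytic steps and of release include most of the late helicases. Of these 6 genes, 5 rose in *cer6* and none passed in *cer39* by limma, where DESeq2 called *mog-5* and *prp-17* and limma after TMM rescaling *mog-5*. *mog-4* (chromosome II, 14552504 to 14561599), the worm counterpart of yeast Prp2, which starts the first catalytic step, was counted at 1948 and 2350 in WT, 2741 and 2662 in *cer39* and 6019 and 6337 in *cer6*, a change of 1.53 (SE 0.12, adjusted p = 0.00217) in *cer6*. *mog-5* (chromosome II, 5399538 to 5405810), the counterpart of Prp22, which releases the mRNA, was at 3512 and 4094 in WT, 5615 and 5401 in *cer39* and 11530 and 10971 in *cer6*, a change of 1.57 (SE 0.12, adjusted p = 0.00197). These are fitted folds of 2.89 and 2.97, and in both genes the *cer39* libraries lay between the other groups. *mog-1*, the counterpart of Prp16, which remodels the complex between the steps, was at 4413 and 4580 in WT, 4692 and 4486 in *cer39* and 7925 and 7874 in *cer6*. Its *cer39* libraries were at the WT level (0.03) and its *cer6* libraries above it (0.81 (SE 0.09, adjusted p = 0.00425)). *prp-17*, a second-step factor, was at 1835 and 2002 in WT, 2584 and 2502 in *cer39* and 4808 and 4275 in *cer6*, and *ddx-15*, the counterpart of Prp43, which takes the spent spliceosome apart, at 3679 and 4270 in WT, 5116 and 4722 in *cer39* and 6660 and 7049 in *cer6*. They rose in *cer6* by 1.24 (SE 0.11, adjusted p = 0.00256) and 0.79 (SE 0.12, adjusted p = 0.00845) on the log2 scale, the second of them not without *cer6* replicate 2. *mog-3*, another gene of the masculinization class, passed in neither mutant and was counted at 1409 and 1444 in WT, 1227 and 1240 in *cer39* and 1641 and 1703 in *cer6*.

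The LSm proteins form rings on the end of U6 (LSM-2 to LSM-8) and on mRNAs bound for decay (LSM-1 to LSM-7). By limma 2 of their 8 genes, *lsm-5* and *lsm-7*, rose, in both mutants. DESeq2 also called *lsm-2*, *lsm-6* and *lsm-8* higher in *cer39*, and edgeR *lsm-6* and *lsm-8*. *lsm-5* (chromosome V, 15570380 to 15570655) was counted at 719 and 712 in WT, 1328 and 1406 in *cer39* and 2240 and 1796 in *cer6*, with 0.93 (SE 0.14, adjusted p = 0.0264) in *cer39* and 1.49 (SE 0.14, adjusted p = 0.00269) in *cer6*. *lsm-7* (chromosome IV, 10933502 to 10934189) was at 940 and 860 in WT, 1634 and 1666 in *cer39* and 2367 and 1796 in *cer6*, with 0.88 (SE 0.16, adjusted p = 0.0365) and 1.197 (SE 0.16, adjusted p = 0.00578). For both genes the mutants lay above WT in every library. *lsm-1*, the subunit of the decay ring, was at 707 and 599 in WT, 731 and 826 in *cer39* and 535 and 438 in *cer6*. *lsm-3*, shared by both rings, was at 796 and 679 in WT, 859 and 955 in *cer39* and 640 and 532 in *cer6*. Both were above WT in each *cer39* library and below it in each *cer6* library, with no change against WT that passed (0.26 and -0.43 for *lsm-1*, 0.30 and -0.33 for *lsm-3*). *lsm-2*, *lsm-4*, *lsm-6* and *lsm-8* had log2 fold changes of 0.34 to 0.68 in *cer39* and 0.06 to 0.29 in *cer6*, none of which passed by limma. The counts of *lsm-3* and *smu-1* are uncertain, since their annotated spans overlap those of *mdt-9* and *pmr-1* on the same strand. *hel-1*, *lsm-2*, *lsm-4*, *prp-4*, *skp-1*, *emb-4*, *mog-4*, *mog-5* and *ddx-15* overlap a coding gene on the opposite strand, and whether the counting used strand was not stated.

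Of the early factors, *rnp-2* and *rnp-3* encode related RNA-binding proteins of U1 and U2, and they lie next to each other on chromosome IV. *rnp-2* was counted at 629 and 684 in WT, 1297 and 1325 in *cer39* and 1515 and 1275 in *cer6* and *rnp-3* at 1179 and 1343 in WT, 1858 and 2017 in *cer39* and 2444 and 2198 in *cer6*. Both mutants were above WT in every library. *rnp-2* changed by 1.00 (SE 0.13, adjusted p = 0.0214) in *cer39* and 1.08 (SE 0.13, adjusted p = 0.00447) in *cer6*, and *rnp-3* by 0.62 (SE 0.12, adjusted p = 0.046) and 0.88 (SE 0.12, adjusted p = 0.00685). *smr-1* (chromosome III, 1143172 to 1145211), which encodes a protein related to the human splicing factor SPF30, was at 761 and 847 in WT, 1373 and 1344 in *cer39* and 2544 and 2379 in *cer6*, a stepwise pattern of 0.76 (SE 0.11, adjusted p = 0.0254) and 1.61 (SE 0.11, adjusted p = 0.00171). *rnp-7*, which encodes the U1 70K protein, was at 1524 and 1806 in WT, 1451 and 1467 in *cer39* and 1626 and 1441 in *cer6*, and neither mutant passed. *hel-1*, which encodes a DEAD-box helicase of early assembly and mRNA export, was at 15764 and 16222 in WT, 18391 and 16478 in *cer39* and 13284 and 13800 in *cer6*. It had the highest level per kilobase of the 35 genes, and its changes of 0.12 (SE 0.11, adjusted p = 0.506) and -0.24 (SE 0.11, adjusted p = 0.173) did not pass.

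**Figure D2:**
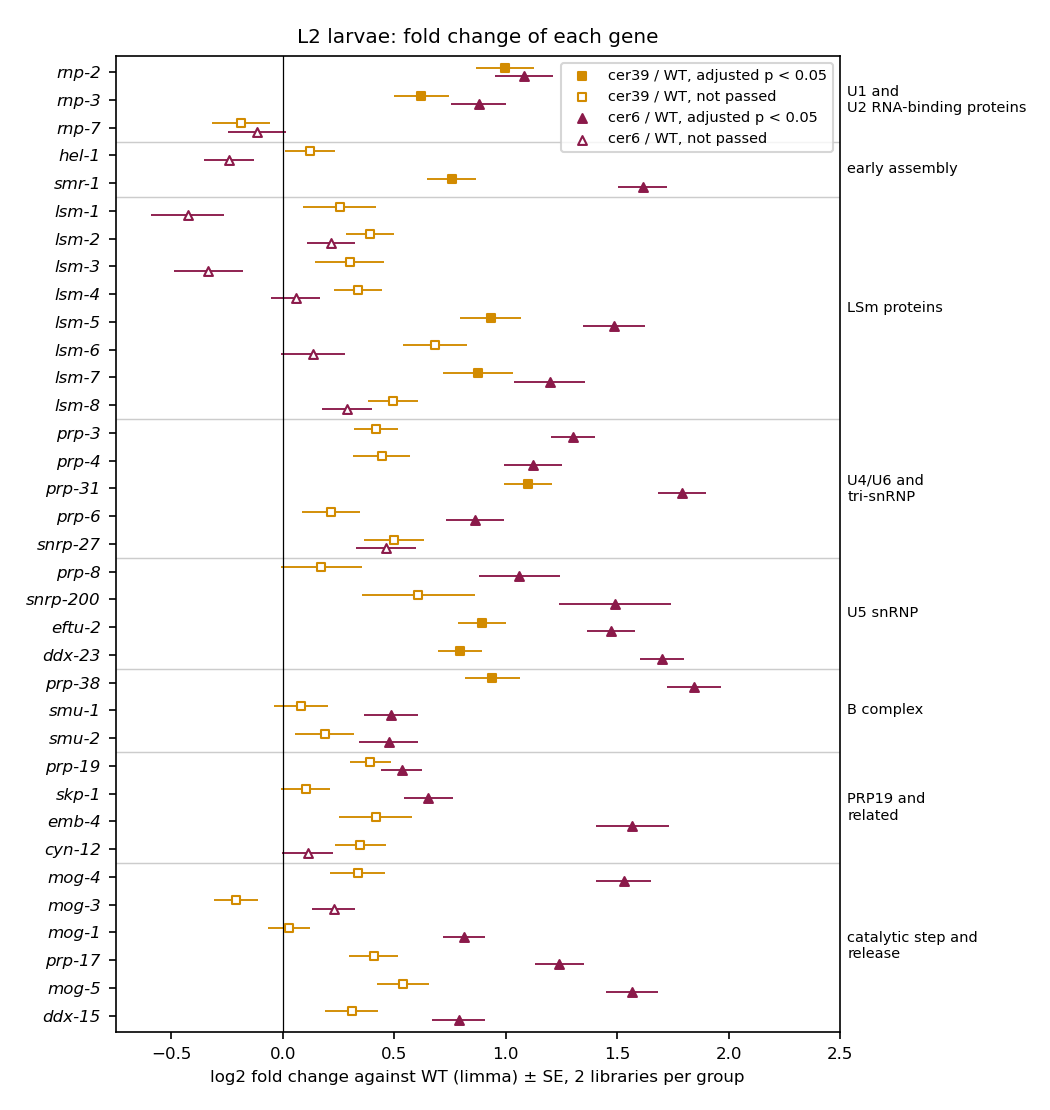
Log2 fold change against WT of the 35 genes in *cer39* (squares) and *cer6* (triangles) at L2, from limma with its standard error as a bar (n = 2 libraries per group), with genes in rows by role. Filled symbols passed an adjusted p of 0.05. The filled triangles number 24 and the filled squares 9, and all of them lie above 0.

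The mutants were also compared with each other. In the same fit, 18 of the 35 genes were higher in *cer6* than in *cer39* and 2 were lower, where 9.11% of all genes tested were higher and 10.5% lower. The median difference was 0.48 (0.02 over all genes tested). The *cer6* libraries lay above the *cer39* libraries without overlap for 24 of the 35 (34.2% of all genes tested) and below for 8 (33.6%). All 6 genes of the catalytic steps and release were higher in *cer6*, with differences of 1.19 (SE 0.12, adjusted p = 0.00793) for *mog-4*, 1.03 (SE 0.12, adjusted p = 0.00823) for *mog-5*, 0.83 (SE 0.11, adjusted p = 0.0102) for *prp-17*, 0.78 (SE 0.09, adjusted p = 0.00864) for *mog-1*, 0.48 (SE 0.12, adjusted p = 0.0445) for *ddx-15* and 0.44 (SE 0.10, adjusted p = 0.0332) for *mog-3*. Of the tri-snRNP and U5 genes, 7 of 9 were higher, among them *ddx-23* at 0.91 (adjusted p = 0.00805), *prp-3* at 0.88 (adjusted p = 0.00805) and *prp-8* at 0.89 (adjusted p = 0.0276). *snrp-27* and *snrp-200* did not pass by limma.

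*emb-4* and *prp-38* were higher in *cer6* by 1.15 and 0.91 (adjusted p = 0.0117 and 0.0104). The differences of *smr-1*, *lsm-5* and *skp-1*, 0.86, 0.55 and 0.55, passed too. The 2 genes lower in *cer6* than in *cer39* were *lsm-1* with -0.68 (SE 0.16, adjusted p = 0.0411) and *lsm-3* with -0.63 (SE 0.16, adjusted p = 0.0425). *rnp-2*, *rnp-3*, *lsm-7* and *prp-19*, which rose in *cer6*, differed from *cer39* by 0.08 to 0.32, and these differences did not pass (adjusted p = 0.195 to 0.682). DESeq2 also called *smu-1* and *snrp-200* higher and *hel-1* and *lsm-6* lower (13.3% of all genes tested were higher and 13.7% lower). Without *cer39* replicate 1 or 2, 0 of the 20 calls remained, where 0% and 0.367% of all genes tested were higher. Without *cer6* replicate 1 or 2, 3 remained, where 1.39% and 1.13% were higher. The median difference of the 18 higher genes was 0.81 with all libraries and 0.76 to 0.83 in these 4 fits, and *lsm-1* and *lsm-3* stayed below 0 in each. With the WT libraries left out in turn, all 20 were kept (12.3% and 12.2%). Since *cer39* was not sorted, sorting and allele cannot be told apart here either.

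Summed counts can hide changes among the transcripts of a gene. Tested singly, 25 of the 48 transcripts tested for the 35 genes rose in *cer6* and none fell, where 6.98% of the 22811 transcripts rose and 7.01% fell. They belong to 23 genes. In *cer39*, 3 transcripts rose, those of *ddx-23* and *prp-31* and the main transcript of *eftu-2*, and none fell, where 0.561% of transcripts rose and 0.381% fell. In K718E, 0 of the 47 transcripts tested passed, where 0.00888% of the 22521 transcripts rose and 0% fell. In the comparison of *cer6* with *cer39*, 13 were higher and none lower (3.6% and 4.03% of all transcripts). *hel-1*, whose sum did not pass, had a transcript that did. The minor transcript C26D10.2b was counted at 635 and 677 in WT, 619 and 598 in *cer39* and 1498 and 1113 in *cer6*, which is a rise of 0.98 on the log2 scale (SE 0.18, adjusted p = 0.03). It was also higher than in *cer39* by 1.08 (SE 0.18, adjusted p = 0.0359). The major transcript C26D10.2a was at 15129 and 15544 in WT, 17772 and 15880 in *cer39* and 11786 and 12687 in *cer6*, and it did not pass (-0.33, adjusted p = 0.123).

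In *mog-1*, K03H1.2.1 was counted at 2966 and 2759 in WT, 2122 and 2514 in *cer39* and 4943 and 6301 in *cer6*, a rise of 0.96 in *cer6* (SE 0.16, adjusted p = 0.0264). K03H1.2.2 was at 1447 and 1821 in WT, 2570 and 1972 in *cer39* and 2982 and 1573 in *cer6*, and did not pass. Reads of the same gene are divided between its transcripts by an estimate, which here scattered more between replicates than the sum. In *emb-4*, the main transcript Y80D3A.2a rose in *cer6* by 1.54 (SE 0.17, adjusted p = 0.0107), and the minor transcript Y80D3A.2e rose from 92 and 61 in WT to 569 and 461, a change of 2.76 (SE 0.47, adjusted p = 0.0264). Its *cer39* counts of 240 and 103 lay between those of the other groups. Both transcripts of *lsm-5* rose in *cer6*.

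**Figure D3:**
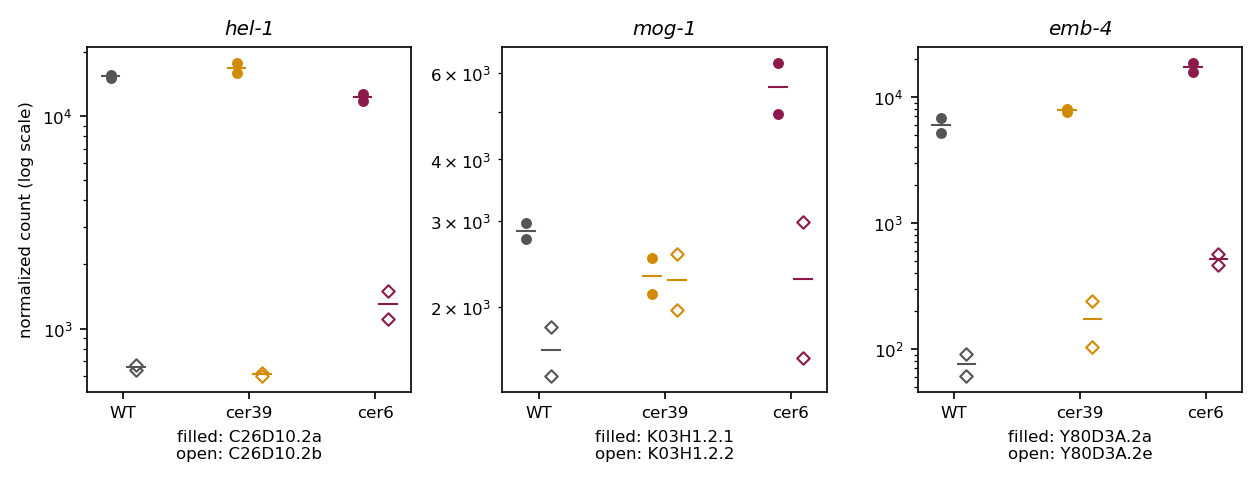
Normalized counts (y axis, log scale) of the transcripts named under each panel, filled and open, of *hel-1*, *mog-1* and *emb-4* in each L2 library, with the group mean as a line. For *hel-1*, the minor transcript is at 1113 and 1498 in *cer6* and at 598 to 677 in the other 4 libraries.

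The deposited lists of altered splicing events were searched for these genes. None of the 134 events listed for K718E, the 381 for *cer39* or the 493 for *cer6* lies in any of the 35 genes. The lists hold only events past the false discovery rate the authors set, in 98, 296 and 389 genes, so that events below it were not seen here. Beside the 15840 genes tested by limma at L4 and 15011 at L2, these are few. A count of 0 in 35 genes thus does not show that their splicing was spared.

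In K718E worms at L4, no gene of the 35 passed: 0 rose and 0 fell by limma, where 0.391% of the 15840 genes tested rose and 0.00631% fell. At an unadjusted p under 0.05, 11 of the 35 were lower and 0 higher, against 10.4% and 9.94% of all genes tested. edgeR on the recovered reads also called 0 (0.354% of all genes rose and 0.00631% fell), and DESeq2 called 6 lower and 0 higher (2.6% and 2.94% of all genes). The median log2 fold change of the 35 genes was -0.15 (-0.01 over all genes tested), and 3 of the 35 values were above 0. The K718E libraries lay below both WT libraries for 23 of the 35 genes, as for 28.9% of all genes tested, and above them for 1 (25.4%). With a K718E library left out, 6 genes fell without replicate 1, where 3.3% of all genes tested fell, and 16 without replicate 2, where 17% did.

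The lowest fold changes in K718E, as fitted without regard to length, were those of LSm genes and of *cyn-12*. Their annotated transcripts are short, 276 to 609 nt, and the relation to length is given below. *lsm-8* was counted at 2790 and 2833 in WT and 2124 and 2207 in K718E, *lsm-7* at 2186 and 1880 in WT and 1523 and 1558 in K718E and *lsm-2* at 1782 and 1653 in WT and 1326 and 1303 in K718E. The groups do not overlap in any of these, with log2 fold changes of -0.38 (SE 0.09, adjusted p = 0.126), -0.40 (SE 0.11, adjusted p = 0.138) and -0.38 (SE 0.10, adjusted p = 0.132). *lsm-1* was at 2604 and 2382 in WT and 1894 and 2000 in K718E, *lsm-4* at 2343 and 2015 in WT and 1635 and 1696 in K718E and *lsm-3* at 1764 and 1644 in WT and 1301 and 1396 in K718E. These were also lower in both K718E libraries, by -0.36, -0.38 and -0.34. *lsm-5*, which rose in both L2 mutants, was at 1712 and 1652 in WT and 1439 and 1621 in K718E, a change of -0.14 (SE 0.11, adjusted p = 0.476), and *lsm-6* changed by -0.31. Outside the ring, *cyn-12* was at 2257 and 2144 in WT and 1619 and 1746 in K718E (-0.39 (SE 0.10, adjusted p = 0.131)), and *snrp-27* at 2205 and 2290 in WT and 1742 and 1879 in K718E (-0.31 (SE 0.10, adjusted p = 0.155)). The 6 genes that DESeq2 called lower were *cyn-12*, *lsm-1*, *lsm-2*, *lsm-4*, *lsm-7* and *lsm-8*.

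As fitted without regard to transcript length, the genes of the large tri-snRNP and U5 proteins were near the WT level in K718E. Values of U5 genes with a trend on length taken out are given below. *prp-8* was counted at 47254 and 45250 in WT and 43608 and 46898 in K718E, and *eftu-2* at 14681 and 13781 in WT and 12853 and 13915 in K718E. Their changes were -0.03 (SE 0.09, adjusted p = 0.856) and -0.09 (SE 0.09, adjusted p = 0.58), and the libraries of the groups overlap. *snrp-200*, at 22615 and 20002 in WT and 23276 and 23874 in K718E, was the 1 gene above WT in both K718E libraries (0.15 (SE 0.09, adjusted p = 0.379)). *prp-31* was at 7254 and 7088 in WT and 6129 and 6821 in K718E, *ddx-23* at 7633 and 7533 in WT and 6796 and 7455 in K718E and *prp-3* at 5395 and 5266 in WT and 4890 and 5327 in K718E. Their changes of -0.15, -0.09 and -0.06 did not pass, and the groups overlap for *prp-3* only. *prp-4* was at 2941 and 2713 in WT and 2346 and 2647 in K718E (-0.18), and *prp-6* at 9044 and 8583 in WT and 8836 and 9169 in K718E (0.03).

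The genes with the largest rises in *cer6* did not pass in K718E. *prp-38* was counted at 3638 and 3519 in WT and 2850 and 3236 in K718E (-0.24 (SE 0.10, adjusted p = 0.229)) and *smr-1* at 3070 and 3012 in WT and 2787 and 3071 in K718E (-0.06). *emb-4* was at 15349 and 14835 in WT and 14672 and 15808 in K718E (0.01), *mog-4* at 5612 and 5296 in WT and 5197 and 5599 in K718E (-0.02) and *mog-5* at 8991 and 9422 in WT and 8699 and 9566 in K718E (-0.01). The groups overlap for *smr-1*, *emb-4*, *mog-4* and *mog-5*, and both K718E libraries were below WT for *prp-38*. *mog-1* was at 9229 and 9295 in WT and 8400 and 9169 in K718E (-0.08), *prp-17* at 5447 and 5473 in WT and 4345 and 5201 in K718E (-0.20) and *ddx-15* at 10472 and 9809 in WT and 9797 and 9871 in K718E (-0.04). Both K718E libraries were below WT for *mog-1* and *prp-17* but not for *ddx-15*. Of the remaining genes, *rnp-2* was at 2260 and 2252 in WT and 1825 and 1900 in K718E (-0.28 (SE 0.09, adjusted p = 0.172)) and *rnp-3* at 3330 and 3036 in WT and 2730 and 3025 in K718E (-0.15). The helicase gene *hel-1* was at 24993 and 23827 in WT and 21502 and 21911 in K718E (-0.17). These 3 genes were below WT in both K718E libraries. *smu-1* was at 3897 and 3922 in WT and 3333 and 3575 in K718E (-0.18), *smu-2* at 4487 and 4275 in WT and 3763 and 4179 in K718E (-0.14), *prp-19* at 12971 and 12031 in WT and 11069 and 12133 in K718E (-0.11), *skp-1* at 6045 and 5847 in WT and 5079 and 5575 in K718E (-0.16) and *mog-3* at 5453 and 5114 in WT and 4608 and 5186 in K718E (-0.11). The groups overlap for *prp-19* and *mog-3*, and *smu-1*, *smu-2* and *skp-1* were lower in both K718E libraries. The value of *rnp-7* was -0.13. Differences in stage, RNA selection and allele between the L4 and L2 comparisons cannot be told apart, and the tables were normalized separately, so no test was made across them.

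**Figure D4:**
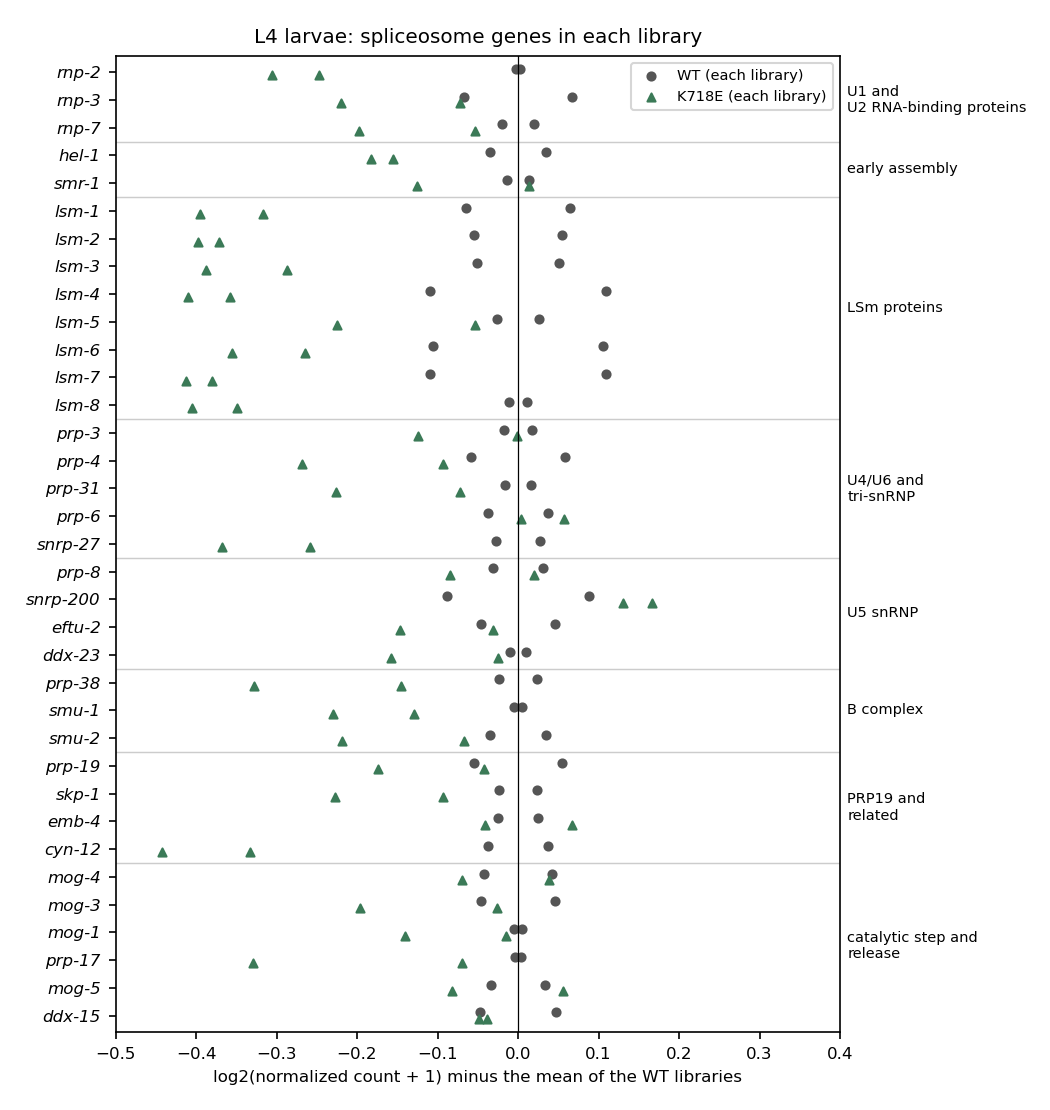
Normalized counts of the 35 genes in each L4 library, as log2(value + 1) minus the mean of the 2 WT libraries (x axis), with genes in rows by role. Each symbol is a library. The K718E libraries lie below both WT libraries for 23 genes, and above both for 1, *snrp-200*.

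Transcript length moved with these values. Over the 35 genes, Pearson's r between the log2 fold change in K718E and log10 of transcript length was 0.83, and over the 15746 genes tested that have a length it was 0.19. These are correlations across genes that share the same 4 libraries. For *cer6* r was 0.44 over the 35 genes (-0.08 over 14956 genes), and for *cer39* it was -0.25 (-0.27). For the difference between *cer6* and *cer39*, r was 0.71 over the 35 genes (0.14). Replicates of the same group differed along length as well: r between the difference of the replicates and log10 of length was 0.78 in WT, 0.81 in *cer6* and -0.63 in *cer39* at L2, and 0.23 and 0.11 in WT and K718E at L4, over the 35 genes. Over all genes tested that have a length, these values were 0.19, 0.27 and -0.07 at L2, and 0.02 and 0.08 at L4. With a smooth trend on length taken out of each library, 23 of the 24 genes that rose in *cer6* still rose, all but *smu-2*, and *lsm-1* and *lsm-3* fell. In *cer39*, 13 then rose, with 6 of the 9 kept, *lsm-5*, *rnp-3* and *smr-1* lost and *emb-4*, *mog-4*, *mog-5*, *prp-3*, *prp-8*, *prp-19* and *snrp-200* added. In K718E 0 passed as before, and the median went from -0.146 to -0.205. Between the mutants, 19 of the 20 calls were kept, with *ddx-15* lost and *lsm-7* and *snrp-200* added.

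**Figure D5:**
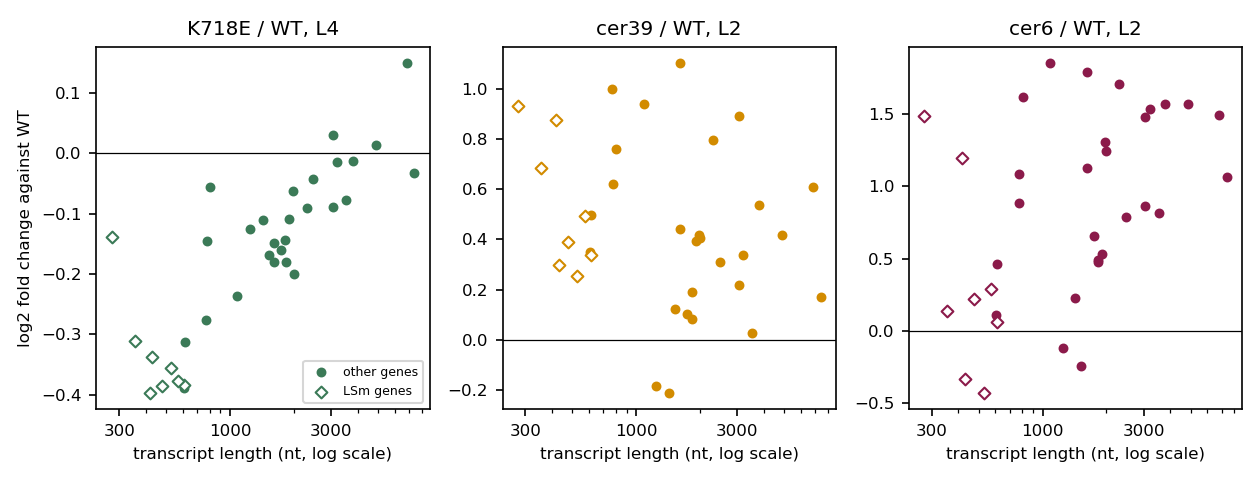
Log2 fold change against WT (y axis) by transcript length (x axis, nt, log scale) of the 35 genes in K718E at L4 and in *cer39* and *cer6* at L2, with LSm genes as open diamonds. Pearson's r with log10 of length is 0.83 in K718E, -0.25 in *cer39* and 0.44 in *cer6*, and the y axes differ in scale.

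K718E worms also differed from WT in markers of other tissues. Of 7 muscle markers 6 rose, where 0.391% of all genes tested rose. Their summed count was 294451 to 310151 in WT and 614554 to 674112 in K718E. Of 6 pharynx markers 3 rose, with sums of 21316 to 22276 and 44090 to 47175. Of 8 neuron markers 1 rose, with sums of 19060 to 19448 in WT and 22592 to 22857 in K718E. The 8 sperm markers summed to 4961 to 5660 in WT and 6563 to 7732 in K718E, with 0 called. No intestine or hypodermis marker passed in K718E. The 20 germ line markers summed to 369638 to 392007 in WT and 339830 to 371111 in K718E, with 0 called. No marker of these lists was at 0 at L4. At L2, 5 of the 20 germ line markers fell in *cer39*, where 3.04% of all genes tested fell. In *cer6* 6 of them fell and 1 rose, where 13.8% of all genes tested fell and 13.8% rose. Of 8 neuron markers 3 rose in *cer6*, with sums of 42947 to 45227 in WT, 43392 to 47332 in *cer39* and 55686 to 57978 in *cer6*. Of 6 sperm markers 2 rose in *cer6*, with sums of 90 to 126 in WT, 129 to 159 in *cer39* and 188 to 260 in *cer6*, where *fer-1* was at 0 in a single library. The other 4 had log2 fold changes below 0 in *cer6*, and the median of the 6 was -0.17. In *cer6*, 1 of 6 pharynx and 1 of 7 hypodermis markers fell, and no muscle or intestine marker passed. The part of these differences in the values of the spliceosome genes was not tested.

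The abundance of the genes was compared per kilobase of transcript, in WT larvae of each stage alone. At L2, *hel-1* was highest with 10510 ± 212 normalized counts per kb (SD, n = 2), followed by *prp-8* with 3972 ± 631 and *eftu-2* with 3136 ± 166. *prp-8* and *eftu-2* are apart by little more than the spread of *prp-8*. *lsm-5*, at 2591 ± 18.3, has an annotated transcript of 276 nt with almost no UTR, so that its value per kb is set high. The lowest were *mog-4* with 672 ± 89, *prp-4* with 661 ± 69 and *smu-2* with 612 ± 88, which do not differ beyond their spread. At L4, *hel-1* had 16040 ± 542 counts per kb, *prp-19* 6562 ± 349 and *prp-8* 6244 ± 191, the last 2 within their spread of each other. The lowest at L4 were *prp-4* with 1749 ± 99.7 and *mog-4* with 1704 ± 69.8, again within their spread.

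Many worm genes lie close behind another gene on the same strand. In the Ensembl annotation of WBcel235, 16 of the 35 genes (45.7%) have a coding gene on the same strand that ends less than 500 nt before their start or, for *lsm-3*, inside them, counted the same way against 21.7% of the 14483 coding genes of the L2 table. Of these 16 upstream neighbours, 8 rose and 2 fell in *cer6*, where 13.8% of all genes tested rose and 13.8% fell. *rnp-2*, itself 1 of the 35 genes, is among those that rose. Of the 16 spliceosome genes behind them 10 rose, against 24 of all 35. *plrg-1*, itself a PRP19-related gene, ends 106 nt before *prp-38* and was counted at 2596 and 2653 in WT, 4402 and 4651 in *cer39* and 8517 and 7656 in *cer6*. Its change of 1.62 in *cer6* (adjusted p = 0.00154) stands beside the 1.85 of *prp-38*. *pisy-1*, 121 nt before *snrp-200*, was at 753 and 891 in WT and 3470 and 3408 in *cer6* (2.07, adjusted p = 0.00137). *syf-2*, 4 nt before *rnp-7*, and *mutd-1*, 230 nt before *cyn-12*, also rose in *cer6* (0.48 and 0.68), while *rnp-7* and *cyn-12* did not pass. Neighbours could also move the other way: *acs-2*, 482 nt before *lsm-5*, fell by 1.90 on the log2 scale in *cer6* (adjusted p = 0.00293), and *sqd-1*, 103 nt before *lsm-8*, fell by 0.91 (adjusted p = 0.0062).

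Other lists of spliceosome genes were read beside these. Of 33 further spliceosome genes, 26 rose and none fell in *cer6*, and 12 rose and none fell in *cer39*, with medians of 1.05 and 0.46. Over all genes tested, 13.8% rose and 13.8% fell in *cer6*, and 4.12% rose and 3.04% fell in *cer39*. Among them, *let-858*, a homolog of yeast Cwc22, was counted at 3290 and 3783 in WT and 10734 and 11006 in *cer6* (1.62, adjusted p = 0.00183). *K07C5.6* was at 1912 and 1960 in WT, 3448 and 3488 in *cer39* and 6318 and 5479 in *cer6*, and *isy-1* at 1008 and 1018, 1921 and 2044, and 3138 and 2754. Both rose in both mutants. *bud-13* rose by 0.88 in *cer39* and 1.68 in *cer6*, and *syf-1* by 1.46 in *cer6*. All 7 Sm genes rose in both mutants, with medians of 0.98 and 1.30, and none of the 7 passed between the mutants. Of the 14 genes of the U2 snRNP and U2AF, 9 rose and 1, *sftb-1*, fell in *cer6*, and 1 (7.1%) rose in *cer39*. Of the 8 SR genes, 2 rose and 2 fell in *cer6* (25% each, median -0.26), and 2 rose and 0 fell in *cer39*. In *cer6* against *cer39*, 1 of the 8 was higher and 5 were lower. Over all genes tested, 9.11% were higher and 10.5% lower there. In K718E, 0 genes of these 4 lists passed, where 0.391% of all genes tested rose and 0.00631% fell. There *isy-1* had the smallest adjusted p of the 33 (-0.46, adjusted p = 0.114).

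*F53H1.1* is the name that both tables give to the gene that the reference names *ddx-46*, which encodes the helicase related to yeast Prp5, a partner of the U2 snRNP. It was left out of every count above because its listed name is absent, and it was added here after its values were seen. *F53H1.1* was counted at 2475 and 3261 in WT, 4225 and 4090 in *cer39* and 10143 and 10151 in *cer6*. It rose in *cer6* by 1.84 (SE 0.15, adjusted p = 0.00221), and its change of 0.55 in *cer39* did not pass (adjusted p = 0.086). In K718E it was at 6756 and 7753, against 6198 and 6777 in WT (0.16, adjusted p = 0.388).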

How the data were processed

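As described in the methods and in the submitters' processing notes, the authors mapped reads to WBcel235 with STAR, estimated counts per transcript with RSEM and scaled them with DESeq2. Tool versions and RSEM's strand setting are not given in the sources used here. These scaled counts are the deposited signal. Each value is a multiple of what 1 read was worth in its library (within 0.1 of a whole read for 100% of them), so that reads could be recovered. Here transcripts were summed per gene. Genes whose mean reached 10 entered limma 3.58.1 (R 4.3.3), with a trend, on log2(value + 1). Benjamini-Hochberg adjustment ran over all of them, with a threshold of 0.05. Where no tool is named, adjusted p-values come from limma. The 4 L4 libraries were fitted alone and the 6 L2 libraries in 1 fit. edgeR 4.0.16 (TMM, quasi-likelihood) and DESeq2 1.42.0 on recovered reads, other pseudocounts and filters, TMM rescaling, a replicate block, fits of 4 libraries and leaving out each library were alternatives. The fits were tested on simulated data, where false calls made up more than the nominal share, most of all with DESeq2 at L2, and the smallest folds were mostly missed. At L4, the replicate number marks a shared outcross, per the labels and methods, and deviations of same-numbered libraries from their group means had a correlation of -0.104.

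Members and gene lists were chosen with earlier results of these data known. The naming rule gives all members by role, values in each library for those past the threshold in any comparison and for at least 2 of each role, up to 6 further spliceosome genes per comparison, and transcripts that passed. *F53H1.1* and the neighbours were chosen after their values were seen. At L2, 1 transcript (F31C3.10) with shifted cells was left out. The authors' fold changes and p-values were not used, and of their splicing tables only the gene identifiers. Coordinates, lengths and neighbours are from Ensembl release 115 on WBcel235. Python 3.11.15, pandas 2.3.3, numpy 2.4.6, scipy 1.17.1 and matplotlib 3.10.9 did the rest.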

Additional observations from a re-analysis of the deposited data

How the results depend on the processing

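Under the 10 alternatives that kept all libraries compared, 22 to 24 of the 24 calls in *cer6* were kept, 6 to 9 of the 9 in *cer39* and 14 to 20 of the 20 between the mutants, and no called gene changed direction under these or with a library left out. A pseudocount of 0.5 or 5 and no filter changed no call. DESeq2 called 17 genes higher in *cer39* (9 by limma), 4 lower in *cer6* than in *cer39* (2 by limma) and 6 lower in K718E (0 by limma). The replicate block left 0 genes lower in *cer6* than in *cer39*, 14 higher, 22 up in *cer6*, 6 up in *cer39* and 0 in K718E, where the numbers mark a shared outcross and the block changed no call. L2 libraries share only a number (correlations of deviations -0.175, 0.12 and 0.04). With the pairing at L4 crossed, chosen after the data were seen, 0 passed. With the length trend removed, also chosen then, 2 genes fell in *cer6*. Tested as transcripts, 3 genes rose in *cer39* and 0 were lower in *cer6* than in *cer39*. The cause of these shifts was not tested.

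With each library left out in turn, the number of genes that fell in K718E ran from 0 to 16, that of genes up in *cer39* from 0 to 8, and those higher and lower in *cer6* than in *cer39* from 0 to 20 and from 0 to 3. These fits have fewer samples, and the lone library of a group is assumed to vary like the other groups. Changes of sign were limited to genes that had not passed. With the length trend removed, K718E values were -0.07 for *prp-6*, -0.14 for *snrp-200* and -0.18 for *emb-4*, *lsm-6* was at -0.066 in *cer6*, and the differences between the mutants were 0.009 for *lsm-2* and 0.12 for *snrp-27*. In K718E, *mog-4* was at 0.006 with edgeR and with TMM rescaling, and *mog-5* at 0.009 with edgeR, 0.008 with TMM rescaling and 0.0 with DESeq2. With a library left out, log2 values ran from -0.126 to 0.014 for *smr-1*, -0.007 to 0.069 for *prp-6*, -0.085 to 0.02 for *prp-8*, -0.041 to 0.067 for *emb-4*, -0.069 to 0.039 for *mog-4*, -0.081 to 0.056 for *mog-5*, -0.091 to 0.004 for *ddx-15* in K718E, and -0.039 to 0.204 for *smu-1*, -0.003 to 0.062 for *mog-1* in *cer39*, and -0.239 to 0.006 for *rnp-7*, -0.006 to 0.123 for *lsm-4*, -0.006 to 0.278 for *lsm-6* in *cer6*, and -0.04 to 0.208 for *rnp-2*, -0.018 to 0.156 for *rnp-7*, -0.144 to 0.074 for *snrp-27* between the mutants.

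Each gene had a normalized count of at least 409 in every library. With 2 libraries per group, the SE of a gene's log2 fold change in K718E was 0.08 to 0.12. A fit with splicing events of at least 10 reads gave no value, since no event lies in these genes.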
